A study of Mus musculus with 6 samples.

Results

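The genes described here encode the proteins of the cytosolic ribosome, together with their paralogs and retrogene copies. They are the rows with an Ensembl identifier whose name is Rpl or Rps followed by a digit, plus Rplp0, Rplp1, Rplp2 and Rpsa. Names with -ps, the Rps6k kinases and Rps19bp1 were left out. This gave 93 of the 60193 rows of the table, with 46 large subunit genes, 31 small subunit genes, 11 paralogs whose names end in l or l1, and 5 retrogenes or further copies. The current annotation lists 87 of them as protein-coding and 6 as pseudogenes (Rpl32l, Rpl37rt, Rpl6l, Rps12l1, Rps3a2 and Rps3a3).

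The study compared metaphase II (MII) oocytes that matured in vitro (IVM) or in vivo (IVO) by RNA-seq of oocyte pools, with 3 IVM and 3 IVO samples. All donors were ICR mice, with no genetic change named in the labels, of 42 to 45 weeks, which the study used as a natural model of advanced reproductive age, and all were primed with 5 IU PMSG. Each pool held 20 oocytes from 3 mice. IVM oocytes were freed from ovaries 46 h after PMSG, stripped of cumulus cells with a pipette, and then cultured in M16 medium for 12 h. IVO oocytes came from oviducts opened 14 h after an hCG injection, and their cumulus cells were removed with hyaluronidase after collection. Culture, hCG, the site of collection and the presence of cumulus cells during maturation therefore differed together between the groups. No younger donors were included among these samples. P-values below measure the spread between pools of the same group.

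Each ribosome joins a small subunit, which reads the mRNA, with a large subunit, which forms the peptide bond, and every ribosome carries a single copy of nearly all of its proteins. Many mRNAs of ribosomal proteins start with a run of pyrimidines, the TOP motif, through which mTOR and Larp1 control their translation. Fully grown oocytes make almost no new RNA, and during meiotic maturation many stored maternal mRNAs, among them those of ribosomal proteins, are known to lose their poly(A) tails and to be degraded.

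The depth estimated from the steps between low values was 16.44 to 19.26 M fragments in the IVM and 17.94 to 18.16 M fragments in the IVO samples, so that 3 fragments on a transcript of 500 bases correspond to 0.521 to 0.697 FPKM. FPKM are fragments per kilobase of transcript, scaled to the depth of the library. Oocyte markers were abundant in each sample, with all 12 listed genes above 1 FPKM and a sum of 21499 to 27958 FPKM in IVM beside 21167 to 23361 in IVO samples. Most of that sum was Oosp1 and Dppa3, which were not called. By contrast, 5 of the 12 were called lower in IVO, with a median log2FC of -0.92 over the list: Zp1 (-2.43), Zp2 (-3.69), Zp3 (-3.13), Nlrp5 (-1.99) and Padi6 (-1.38). Of 20 cumulus and granulosa markers, 5 reached 1 FPKM in any sample, Amh and Areg were listed at 0 throughout, and the sum was 70.35 to 90.3 FPKM in IVM beside 48.4 to 75.9 in IVO samples. Nr5a2 was the largest part of the IVM sum and was called lower (log2FC -1.04), whereas the cumulus expansion genes Tnfaip6 (0 to 0.14 FPKM in IVM, 0.34 to 0.49 in IVO), Has2 (0.04 to 0.14, 0.17 to 0.37) and Ptx3 (0 to 0.03, 0.07 to 0.17) and also Fst (0.10 to 0.12, 0.36 to 1.73) had higher values in every IVO sample, at levels too low for the test. Of 7 blood markers 4 reached 1 FPKM in any sample, with sums of 1.49 to 2.72 FPKM in IVM beside 1.88 to 7.89 in IVO samples. The part of other cells in the differences below was not tested. In pooled oocytes, fewer cells of a type and less RNA per cell cannot be told apart.

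Many members passed the test as lower in IVO oocytes, and none passed it as higher. Of the 84 members with a mean of at least 1 FPKM, 41 (48.8%) were called lower in IVO by limma at an adjusted p under 0.05 and a log2FC of -1 or less, against 17.9% of all 18818 rows tested. Of the 13154 Ensembl rows in the same fit, 14.6% were called lower. No member was called higher, against 0.606% of all rows, and none was higher at an unadjusted p under 0.05 either (5.56% of all rows). The log2FC is IVO minus IVM on the log2(FPKM + 1) scale, which understates changes of low values. At an adjusted p under 0.05 alone, 47 members were lower, where 21.5% of all rows were. The 3 IVO values lay below the 3 IVM values without overlap in 59 members (32.6% of all rows) and above them in 0 (9.62%). The median log2FC of the tested members was -1.12, beside -0.30 for all rows. Negative values were found for 78 members and positive values for 6, beside 12414 and 6404 of all 18818 rows.

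**Figure D1:**
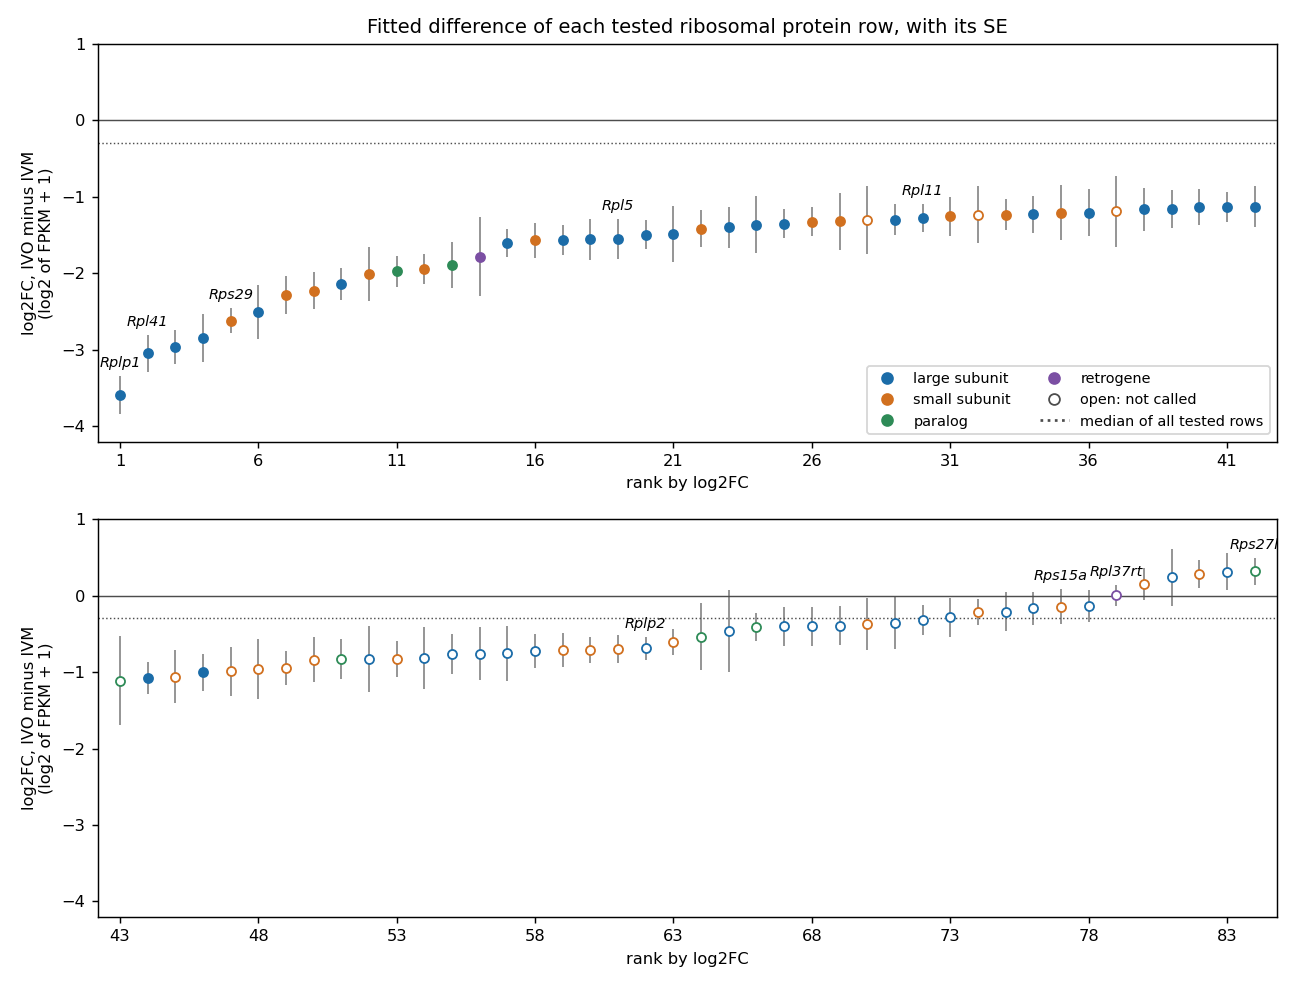
Fitted log2FC (IVO minus IVM, log2 of FPKM + 1) of the 84 tested members by rank, in 2 rows, with bars for the SE of the fit; filled points were called lower, and the dotted line is the median of all tested rows (-0.30). The order runs from Rplp1 at -3.59 to Rps27l at 0.32, with 41 filled points.

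Summed over the 77 subunit genes, the level was 8275, 8060 and 7230 FPKM in the 3 IVM samples and 2996, 2945 and 3146 FPKM in the 3 IVO samples. That sum took 0.395%, 0.382% and 0.396% of all FPKM in IVM and 0.192%, 0.189% and 0.191% in IVO. Neither measure overlapped between the groups. The median subunit gene stood at 33.5, 29.1 and 26.7 FPKM in IVM and at 11.5, 9.72 and 13.97 FPKM in IVO samples. At least 100 FPKM was reached by 19 to 20 members in IVM samples and by 9 to 12 in IVO samples. The 5 most abundant members took 48.3% to 52.4% of the members' FPKM in IVM and 68.1% to 69.4% in IVO, and Rps27l was the first in every sample. Replicates of a group differed by a median of 1.501 times between the highest and lowest IVM value of a member, and of 1.45 times between the IVO values.

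**Figure D2:**
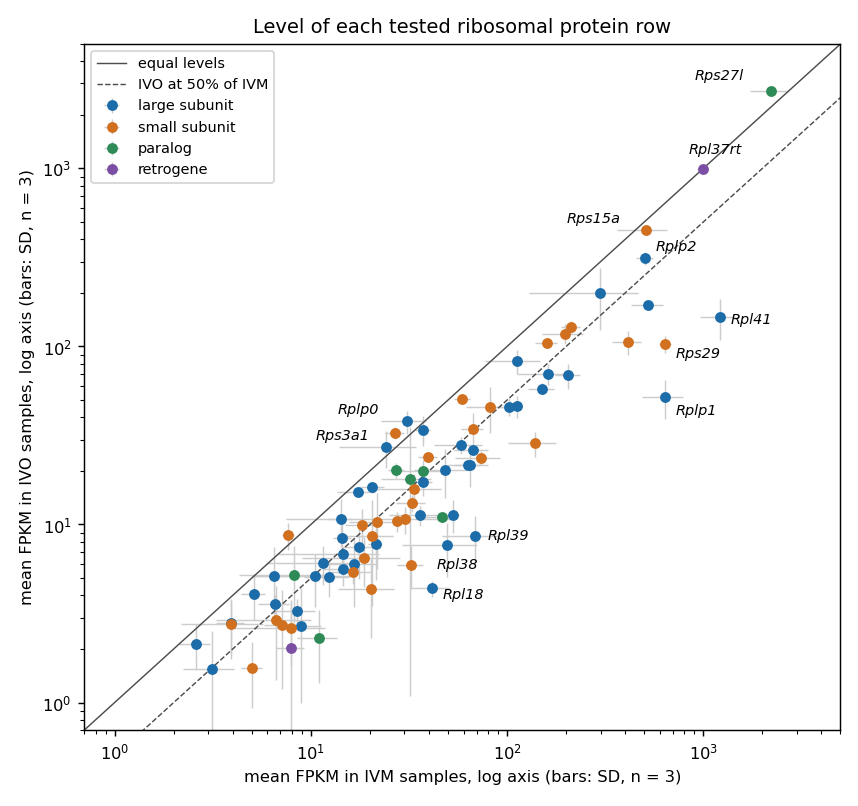
Mean FPKM of each tested member in IVM (x axis) and IVO (y axis) samples, both on log axes, with bars for the SD of 3 samples; the solid line marks equal levels and the dashed line an IVO level of 50% of IVM. Rps27l and Rpl37rt lie close to the solid line at the upper right, whereas Rplp1, Rpl41 and Rps29 lie far below the dashed line.

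The scaling of the libraries sets how many members are called. With median-ratio scaling the median of all rows moved from -0.30 to -0.04, and 24 members were called lower beside 11.3% of all rows. With quantile normalization that median was 0.17, 19 members were called lower beside 8.39% of all rows, and 20 members had a positive log2FC. No member was called higher under either. The 19 members called lower in each of 4 other settings (median-ratio scaling, quantile normalization, sums over annotated copies, length trend removed) include Rplp1, Rpl41, Rpl18, Rpl39, Rps29, Rpl38, Rps25, Rpl22, Rps19, Rps4l, Rps28, Rpl22l1, Rpl32, Rps12, Rpl31, Rpl5 and Rpl35. In the setting with sums, Rps4l and Rpl22l1 took the sum of the ortholog that they share with their parents. Rpl41 has no other Ensembl row with its ortholog to add. That setting therefore did not test these rows on their own. Of the 41 calls, 28 held when any of the 6 samples was left out. The shares of all rows that kept a call in all of these settings, or without any sample, are not given here.

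The bases at annotated RNA starts were compared with the TOP motif, since it is the feature that these genes are known to share. A RefSeq start was found for 68 of the 93 members (build GRCm38.p6). A run of at least 5 bases of C and T that begins with C, on the sense strand and starting within 5 bases of the annotated start, was present in 32 of them (47.1%), beside 21.2% of 27025 RefSeq genes and 23.4% of those with a mean of at least 1 FPKM. A run exactly at the start base was present in 15 (22.1%), beside 3.01% of all genes. The following windows run from 10 bases before to 20 bases from the annotated start, with the pyrimidine run in capitals, and show members that were called lower beside members that were not.
Rpl38 (chr11:114668570-114668599, + strand): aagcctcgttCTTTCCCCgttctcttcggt
Rpl18 (chr7:45718061-45718090, + strand): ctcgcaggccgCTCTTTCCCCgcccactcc
Rpl35 (chr2:39005112-39005141, - strand): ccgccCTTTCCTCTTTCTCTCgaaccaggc
Rps15a (chr7:118116128-118116157, - strand): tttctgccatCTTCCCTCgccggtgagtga
Rps6 (chr4:86857348-86857377, - strand): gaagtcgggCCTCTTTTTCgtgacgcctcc
Rpl15 (chr14:18270967-18270996, - strand): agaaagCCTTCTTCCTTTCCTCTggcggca
Rps27 (chr3:90213629-90213658, - strand): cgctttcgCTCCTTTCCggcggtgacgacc
Rps27l (chr9:66946076-66946105, + strand): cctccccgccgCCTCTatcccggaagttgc
Rpl38, Rpl18 and Rpl35 were called lower in IVO, and Rps15a, Rps6 and Rpl15 were not, although all carry a run of 8 or more pyrimidines. Among the members with a run within 5 bases, 13 of 28 tested (46.4%) were called lower with a median log2FC of -1.02. Among those with a RefSeq start and no such run, 18 of 34 (52.9%) were, with a median of -1.17. Annotated starts were not measured in these oocytes, and a shift of a few bases can move a gene between these groups. The split therefore cannot tell members with the motif from members without it. Of all rows 17.9% were called lower. The window of Rps27 holds a longer run than that of its paralog Rps27l.

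The acidic stalk of the large subunit is built from Rplp0 and from dimers of Rplp1 and Rplp2, and it recruits the translation factors that hydrolyse GTP. Rplp1 had the most negative log2FC of all members. Its level was 809, 557 and 541 FPKM in IVM samples and 48.6, 41.1 and 66.2 FPKM in IVO samples, a ratio of the means of 12.2. All IVM samples were far above all IVO samples (log2FC -3.59, SE 0.25, limma adjusted p = 6.53e-04). Rplp2 was at 557, 503 and 458 FPKM in IVM and at 303, 294 and 341 FPKM in IVO samples. The groups did not overlap, with a log2FC of -0.69 and a limma adjusted p of 0.0197, but the fold stayed under the threshold for a call. Rplp0 was at 29.1, 23.7 and 39.4 FPKM in IVM and at 43.3, 38.6 and 32.1 FPKM in IVO samples, which overlapped (log2FC 0.32, SE 0.24, limma adjusted p = 0.394). The FPKM ratio of Rplp1 to Rplp2 was thus 1.45, 1.11 and 1.18 in IVM and 0.160, 0.140 and 0.194 in IVO samples. In the annotation of GRCm39, Rplp1 lies at chr9:61820557-61821872 and Rplp2 at chr7:141027274-141034167.

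Among the large subunit genes 26 of the 45 tested (57.8%) were called lower, beside 17.9% of all rows, with a median log2FC of -1.13. Their summed level was 5352, 4951 and 4484 FPKM in IVM and 1657, 1595 and 1717 FPKM in IVO samples. Leaving out IVO replicate 2 left 17 of them called, and leaving out any other sample left 19 to 24. Rpl41, a peptide so short that its mRNA is mostly untranslated sequence, was second in the order of log2FC. It was at 1465, 1190.3 and 973 FPKM in IVM and at 138, 113 and 188 FPKM in IVO samples (log2FC -3.05, SE 0.24, limma adjusted p = 9.13e-04). No other Ensembl row carries its KEGG ortholog, so no copy could be added to it. Copies without that label were not searched for. Its exons share 25 bases with the processed pseudogene Gm9176 on the same strand (mean 0.01 FPKM). Rpl39, a small protein that lines the exit tunnel of the nascent peptide, was at 85.5, 77.4 and 43.9 FPKM in IVM and at 7.23, 6.95 and 11.5 FPKM in IVO samples (log2FC -2.85, SE 0.32). Rpl38, which in the mouse is needed for the translation of certain Hox mRNAs, was at 71.8, 45.2 and 31.5 FPKM in IVM and at 5.51, 6.88 and 10.5 FPKM in IVO samples (log2FC -2.51, SE 0.35). In both, every IVM sample was above every IVO sample. For Rpl18 the 3 IVO samples held 4.90, 4.03 and 4.24 FPKM, beside 51.6, 33.65 and 39.0 FPKM in IVM (log2FC -2.96, SE 0.22).

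Rpl3, which reaches to the peptidyl transferase centre, was at 103 ± 16.03 FPKM in IVM and at 45.98 ± 5.22 FPKM in IVO (SD, n = 3), and was called lower (log2FC -1.13). Rpl5 and Rpl11 bind the 5S rRNA and, outside the ribosome, the p53 regulator Mdm2. Rpl5 was at 47.2, 34.8 and 25.7 FPKM in IVM and at 11.5, 9.72 and 12.7 FPKM in IVO samples (log2FC -1.55), and Rpl11 at 111, 110.2 and 116 FPKM in IVM and at 49.45, 50.6 and 38.5 FPKM in IVO samples (log2FC -1.28). Both were called lower in the fit of all samples and in all 6 fits that left out a sample, whereas Mdm2 itself had a log2FC of 0.33 (limma adjusted p = 0.240). The exons of Rpl5 overlap those of Dipk1a on the opposite strand over 2980 bases, and the library kit does not mark strand, so reads of the pair cannot be told apart. Rpl11 was not called with median-ratio scaling (log2FC -0.96).

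Other large subunit genes stayed close to their IVM level. Rpl4 was at 12.6, 27.25 and 32.4 FPKM in IVM and at 33.85, 26.6 and 21.0 FPKM in IVO samples (log2FC 0.24), and IVM replicate 1 stood apart as the lowest. Without that sample its log2FC was -0.15. Rpl15 was at 33.5, 39.4 and 38.7 FPKM in IVM and at 33.3, 27.9 and 41.1 FPKM in IVO samples (log2FC -0.14), and its exons share 341 bases with Nkiras1 on the opposite strand, which had a mean of 346 FPKM. Rpl13a, a target of interferon-driven translational control, was at 17.4 ± 3.87 FPKM in IVM and 15.2 ± 0.967 FPKM in IVO (SD, n = 3; log2FC -0.16). For Rpl15 and Rpl13a the sign changed with the scaling. Rpl17 had the widest spread among abundant members, with 115, 335 and 447 FPKM in IVM and 237, 248 and 112 FPKM in IVO samples, and its groups overlapped.

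Among the small subunit genes 12 of the 30 tested (40%) were called lower, beside 17.9% of all rows, with a median log2FC of -1.12. Their summed level was 2923, 3109 and 2745 FPKM in IVM and 1339, 1350 and 1429 FPKM in IVO samples. Without Rpl41 and Rplp1, the large subunit sum was 3078, 3204 and 2970.5 FPKM in IVM and 1469.5, 1440.03 and 1463 FPKM in IVO samples. The small subunit sum kept its own abundant and strongly changed genes, such as Rps29, so these sums are not matched. Whether the 2 subunits differ was not tested, since the members of a subunit are not replicates. Rps29, a zinc-binding protein of the head of the subunit, had the largest change, with 688, 616 and 616 FPKM in IVM and 111, 90.1 and 109.8 FPKM in IVO samples (log2FC -2.62, SE 0.16, limma adjusted p = 6.23e-04). Rps25, which is needed by viral internal ribosome entry sites, was at 117, 183 and 117 FPKM in IVM and at 24.4, 27.4 and 33.6 FPKM in IVO samples (log2FC -2.23), and its exons overlap Cenatac and Trappc4 on the opposite strand, with means of 24.1 and 15.5 FPKM. Rps19, the gene most often mutated in Diamond-Blackfan anaemia, was at 27.4, 15.0 and 18.1 FPKM in IVM and at 4.08, 2.45 and 6.57 FPKM in IVO samples (log2FC -2.01). In all 3 genes the lowest IVM sample was above the highest IVO sample.

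Rps3, a protein of the mRNA entry channel, was called lower at low levels, with 5.52, 4.31 and 5.24 FPKM in IVM and 1.3, 1.11 and 2.28 FPKM in IVO samples (log2FC -1.25). It lost its call without IVM replicate 1 (log2FC -1.19) or without IVO replicate 2 (-1.13). Rpsa, which is also known as the laminin receptor, was at 12.2, 4.46 and 7.06 FPKM in IVM and at 2.31, 1.81 and 3.78 FPKM in IVO samples (log2FC -1.23, limma adjusted p = 0.0524). Rps27a, which is translated as a fusion with ubiquitin, was at 27.1, 16.6 and 17.9 FPKM in IVM and at 8.73, 3.42 and 13.6 FPKM in IVO samples (log2FC -1.30, limma adjusted p = 0.0758). Neither of these was called, although their groups did not overlap, and each passed the test without a single sample, Rpsa without IVM replicate 2 and Rps27a without IVO replicate 3. On the opposite strand, Rps27a exons overlap Mtif2 over 1101 bases and Clhc1 over 160 bases, with means of 11.5 and 163 FPKM. Rps3 exons overlap Gdpd5 over 83 bases (mean 57.4 FPKM). Rps14 was at 159 ± 20.4 FPKM in IVM and 104 ± 4.04 FPKM in IVO (SD, n = 3; log2FC -0.60, limma adjusted p = 0.0409), a change too small for a call. Rps13 shows how far a single library can move a mean, with 56.3 FPKM in IVM replicate 1 and 19.65 and 14.6 FPKM in the other IVM samples, beside 8.81 to 12.5 FPKM in IVO.

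Rps6, the protein phosphorylated by the S6 kinases, was at 8.28, 7.51 and 7.27 FPKM in IVM and at 10.2, 7.2 and 8.78 FPKM in IVO samples (log2FC 0.15). Rps3a1 was at 24.6, 30.2 and 25.6 FPKM in IVM and at 32.8, 35.15 and 29.9 FPKM in IVO samples (log2FC 0.28). Rps15a was at 371, 659 and 498 FPKM in IVM and at 419, 462 and 467 FPKM in IVO samples (log2FC -0.14), and without IVM replicate 2 its log2FC was 0.06. The groups overlapped in these 3 genes. Rps15a is listed with a length of 5130 bases, the longest of all members.

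All 4 members on the X chromosome were called lower, namely Rpl10 (log2FC -1.16), Rpl36a (-1.13), Rpl39 (-2.85) and Rps4x (-1.23). Over all tested members 48.8% were called lower, with a median log2FC of -1.12, and over all rows 17.9%. Except for Rpl39, the values of these genes were close to that median. Rpl10 and Rpl36a kept the call in 2 of the 6 fits that left out a sample. Rpl10 lost it without IVM replicate 1 (log2FC -0.94), IVM replicate 3 (-1.17), IVO replicate 1 (-1.11) or IVO replicate 2 (-1.10). Rpl36a lost it without IVM replicate 1 (-1.01), IVM replicate 2 (-1.03), IVO replicate 2 (-1.11) or IVO replicate 3 (-1.004).

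Paralogs and retrogenes did not move as a block. Rps27l, a paralog of Rps27 that p53 is known to induce, was the most abundant member in both groups, at 2046, 2752 and 1823 FPKM in IVM and at 2815, 2511 and 2807 FPKM in IVO samples. These overlapped (log2FC 0.32, SE 0.18, limma adjusted p = 0.248). Its parent Rps27 was at 28.6, 20.6 and 16.3 FPKM in IVM and at 8.48, 6.78 and 15.7 FPKM in IVO samples (log2FC -1.06, limma adjusted p = 0.0646). The log2 ratio of Rps27l to Rps27 was 6.61 ± 0.45 in IVM and 7.98 ± 0.51 in IVO (SD, n = 3), with no overlap. Both coding sequences share 77.3% of their bases.

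Rpl39l, a paralog known from male germ cells, was at 50.5, 30.0 and 30.9 FPKM in IVM and at 20.1, 22.9 and 16.9 FPKM in IVO samples, and was not called (log2FC -0.83, limma adjusted p = 0.0571). Since Rpl39 fell by 2.85 on the same scale, the log2 ratio of Rpl39l to Rpl39 was -0.75, -1.34 and -0.49 in IVM and 1.36, 1.59 and 0.51 in IVO samples. The parent was thus the higher of the pair in every IVM sample and the paralog in every IVO sample. The log2 ratio of Rpl36al to Rpl36a was 1.10 ± 0.39 in IVM and 1.82 ± 0.26 in IVO (SD, n = 3), again without overlap. Rps4l went the other way. It was called lower, with 56.1, 42.3 and 40.75 FPKM in IVM beside 11.6, 10.6 and 10.7 FPKM in IVO (log2FC -1.97, SE 0.20, limma adjusted p = 0.0017), and its log2 ratio to Rps4x was 0.49 ± 0.04 in IVM and -0.24 ± 0.19 in IVO (SD, n = 3).

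Ratios were compared for the 7 paralogs tested in limma. The IVO minus IVM difference of the log2 ratio was 2.01 for Rpl39l, 1.37 for Rps27l, 0.71 for Rpl36al and -0.74 for Rps4l, each with an exact two-sided permutation p of 0.1, the smallest that 3 against 3 samples allow, and 0.175 after Benjamini-Hochberg adjustment over the 7 pairs. It was 0.25 for Rpl22l1 (exact permutation p = 0.4), 0.60 for Rpl7l1 (0.5) and 0.46 for Rps12l1 (0.7), and these groups overlapped. Rpl22l1 was called lower together with its parent Rpl22, with 13.6, 8.49 and 11.0 FPKM in IVM beside 2.28, 1.3 and 3.32 FPKM in IVO for the paralog (log2FC -1.89). Rpl22 stood at 53.55, 56.4 and 48.8 FPKM in IVM beside 10.9, 9.18 and 13.97 FPKM in IVO (log2FC -2.14). The parent Rpl7 was called lower as well (log2FC -1.14), though not without IVM replicate 1 (-0.97) or IVO replicate 2 (-1.05), while Rpl7l1 was at 9.84, 3.76 and 11.1 FPKM in IVM and at 4.75, 7.77 and 3.05 FPKM in IVO, which overlapped. Rps12l1 is identical to Rps12 over 384 aligned bases, so the share of reads given to each is uncertain. Its values were 32.85, 22.4 and 40.5 FPKM in IVM and 37.7, 6.64 and 10.02 FPKM in IVO samples.

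**Figure D3:**
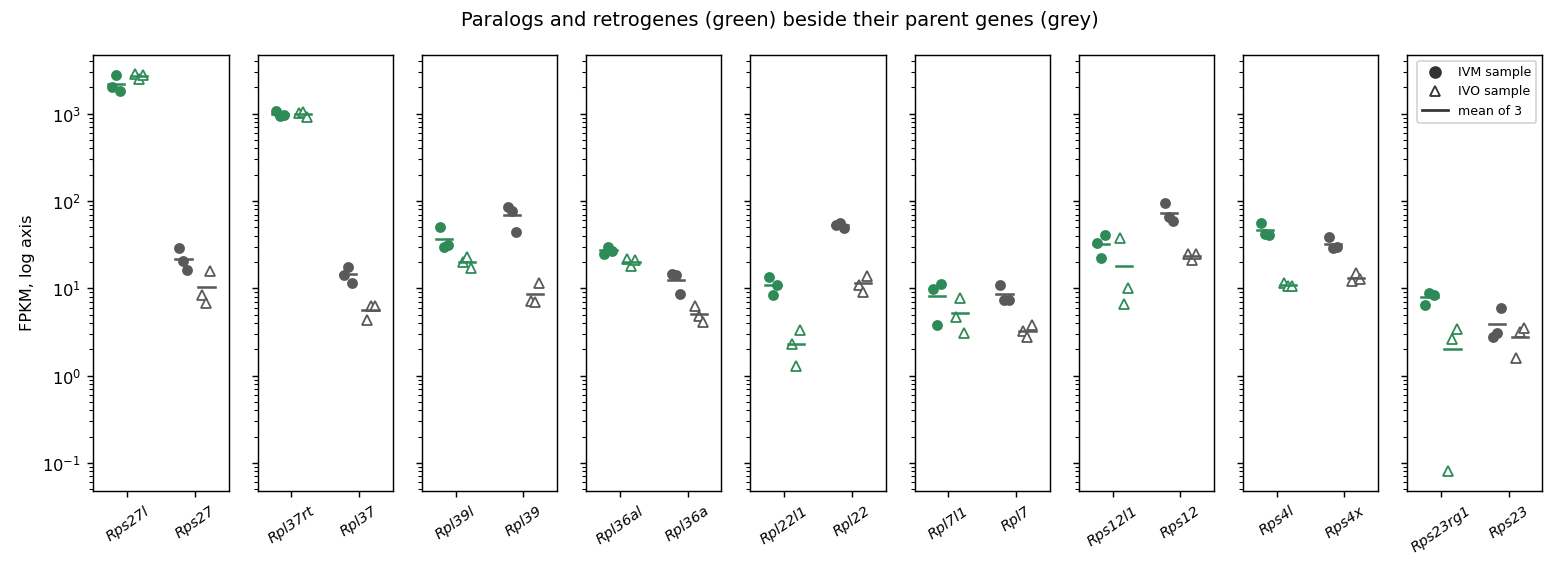
FPKM (log axis) of 7 paralogs and 2 retrogenes in green beside their parents in grey, with a filled circle for each IVM sample, an open triangle for each IVO sample and a line for the mean of 3. Rps27l and Rpl37rt stay at the top of the axis in both groups while Rps27 and Rpl37 are lower in IVO, and Rpl39l and Rpl39 change places.

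The retrogene Rpl37rt was second in abundance in the IVO samples and IVM replicate 3, and came after Rpl41 in the other IVM samples, at 1063, 942 and 974 FPKM in IVM and at 1016, 1053 and 926 FPKM in IVO samples (log2FC 0.01, SE 0.14). Its parent Rpl37 was at 14.35, 17.65 and 11.6 FPKM in IVM and at 4.33, 6.21 and 6.26 FPKM in IVO samples and was called lower (log2FC -1.23, limma adjusted p = 0.0124). Rpl37rt shares 99.7% of the 291 coding bases of Rpl37 and lies at chr5:115241287-115241580 of GRCm39, where the annotation has a transcribed processed pseudogene. How reads of the shared sequence were divided between the 2 rows can set both levels, and is uncertain. Rps23rg1, by its name a retrogene of Rps23, was called lower, with 6.50, 8.86 and 8.48 FPKM in IVM beside 0.08, 2.64 and 3.38 FPKM in IVO (log2FC -1.78, SE 0.52, limma adjusted p = 0.0459), and 2 of the 6 fits that left out a sample kept the call.

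The 9 members below a mean of 1 FPKM were not tested. Rpl32l and Rpl3l, a paralog known from striated muscle, were listed at 0 in all samples. Rpl10l, which replaces the X-linked Rpl10 in male meiosis, reached at most 0.29 FPKM, Rps3a2 0.42 FPKM and Rps3a3 0.18 FPKM. Rps27rt was at 0 in the IVO samples and in IVM replicate 1 and at 1.69 and 1.75 FPKM in the other IVM samples, and its coding sequence is identical to that of Rps27. Rpl6l, which shares 98.7% of its aligned bases with Rpl6, was at 0.65 to 1.27 FPKM in IVM and 0.48 to 1.35 FPKM in IVO samples. Rpl12 and Rps18 are subunit genes of every ribosome, and their rows held 0 to 0.66 FPKM and 0.20 to 1.87 FPKM over the 6 samples.

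Processed pseudogenes are nearly identical to these genes and can take part of their reads, so the rows of each gene and its copies were also summed. The table lists 2657 Ensembl rows under the KEGG orthologs of the 77 subunit genes, of which 2565 are not members, and the subunit gene was the highest row for 50 of the 77 orthologs. For 12 orthologs it held less than 10% of the summed FPKM in IVM, and for 26 it held more than 90%. The rows of the Rpl12 ortholog summed to 76.6, 96.2 and 105 FPKM in IVM beside 28.7, 25.6 and 36.04 FPKM in IVO, led by Rpl12-ps2, and the sum was called lower (log2FC -1.59). Those of Rps18 summed to 50.9 ± 11.5 FPKM in IVM and 44.1 ± 4.97 FPKM in IVO (SD, n = 3; log2FC -0.18), led by Gm6987.

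Counted as sums, 35 of the 77 orthologs were called lower and 0 higher, beside 17.9% of all rows called lower in that fit, with a median log2FC of -0.96 for the sums and -1.13 for the rows. Both row and sum were called for 29 orthologs, the row alone for 9 and the sum alone for 6. Rpl24 changed most, from an uncalled row (log2FC -0.36) to a sum of 276 ± 97.3 FPKM in IVM and 28.0 ± 7.96 FPKM in IVO (SD, n = 3; log2FC -3.23), led by Gm20509. Sums for Rpl23a (log2FC -0.00) and Rps7 (-0.47) were not called although their rows were. The Rpl23a row itself (log2FC -1.36) kept its call in 1 of the 6 fits that left out a sample (without IVM replicate 3), with a log2FC of -1.62 to -1.01, and lost it with median-ratio scaling, quantile normalization and the length trend removed. The sum for Rps27 had a log2FC of 0.30 and was nearly all Rps27l, which carries the same ortholog, and the sum for Rpl37 had a log2FC of -0.22 and was mostly Rpl37rt. The row and the sum of Rplp1 (-3.59 and -3.24), Rps29 (-2.62 and -2.77) and Rps25 (-2.23 and -2.19) were close. The row held 98.4%, 59.9% and 98.7% of the IVM sum in the same order. For Rplp1 and Rps25 the row and the sum are thus mostly the same values. The sum changed less than the row for Rpl18 (row -2.96, sum -1.82), Rpl39 (-2.85, -1.73), Rpl38 (-2.51, -1.86) and Rps28 (-1.94, -1.14). All of these sums were still called lower. The Rpl18 row held 84.2% of its sum in IVM and 33.4% in IVO.

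**Figure D4:**
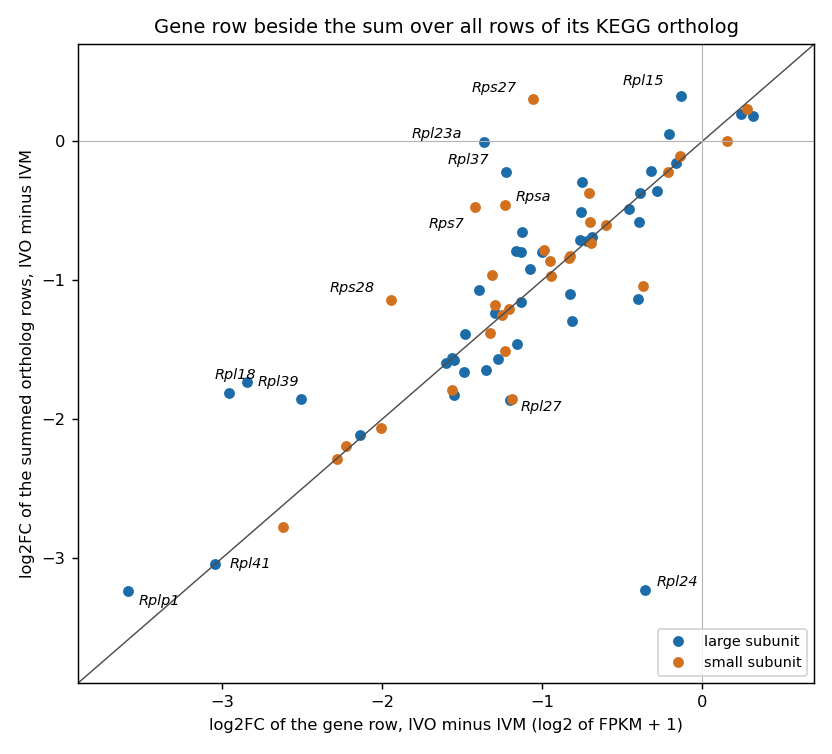
Log2FC of the subunit gene's own row (x axis) and of the sum of all Ensembl rows under its KEGG ortholog (y axis), IVO minus IVM on the log2(FPKM + 1) scale, for the 75 tested subunit genes; the diagonal marks equal values. Most points follow the diagonal, Rpl24 lies far below it at a sum of -3.23, and Rps27, Rpl23a and Rpl37 lie above it.

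Members are short, with a median listed length of 795 bases, and the mean fragment length inferred from the files was 216, 206 and 196 bases in IVM and 264, 254 and 249 bases in IVO samples. Of the members of up to 600 bases 15 of 21 tested were called lower with a median log2FC of -1.32, beside 20.9% and -0.46 for other Ensembl rows of that length. Of those over 600 and up to 1000 bases 19 of 40 were called with a median of -1.06, beside 22.0% and -0.33, and of those over 1000 bases 7 of 23 (30.4%) with a median of -0.77, beside 12.7% and -0.14. In each class the members' median was the lower. Across the 84 tested members, Pearson's r of log2FC with log2 length was 0.31 and with the IVM level -0.23, where the points share the same 6 libraries. With the length trend removed in each library, 36 members were called lower beside 16.4% of all rows, and with fragment numbers rebuilt from FPKM, depth and fragment length 44 were, beside 24.0%. The part of fragment length in the differences was otherwise not tested.

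**Figure D5:**
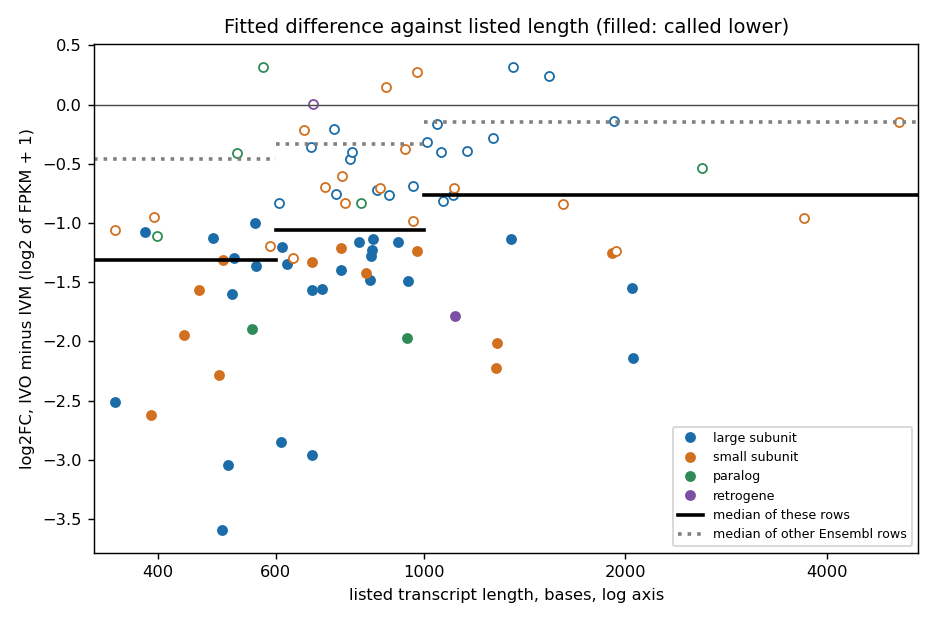
Log2FC (IVO minus IVM, log2 of FPKM + 1) of the 84 tested members against listed transcript length in bases on a log axis; filled points were called lower, black lines are the members' medians in 3 length classes (-1.32, -1.06 and -0.77) and dotted lines those of other Ensembl rows (-0.46, -0.33 and -0.14). The black line is below the dotted line in each class.

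Some ribosomal components fall outside the name rule. Fau, a ubiquitin-like fusion with a small subunit protein, was at 142 ± 27.3 FPKM in IVM and 104 ± 15.4 FPKM in IVO (SD, n = 3; log2FC -0.43), and Rack1, a scaffold of the small subunit, at 135 ± 18.5 and 143 ± 7.73 FPKM (log2FC 0.08). Neither was called.

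The 58 tested genes for ribosome assembly and rRNA transcription, of 70 listed, had a median log2FC of -0.03, with 4 (6.90%) called lower, beside 17.9% of all rows, and 0 higher. At an unadjusted p under 0.05, 11 were lower and 3 higher, beside 5903 and 1047 of all 18818 rows. The called genes were the AAA ATPase Mdn1 (log2FC -2.09), the small subunit processome factors Utp4 (-1.55) and Utp6 (-1.34), and Polr1d (-1.52), a subunit shared by RNA polymerases I and III. Dkc1, the pseudouridine synthase, had the highest log2FC of the list, with 496 ± 61.8 FPKM in IVM and 786 ± 49.9 FPKM in IVO (SD, n = 3; log2FC 0.67, limma adjusted p = 0.0221), below the fold for a call. Among 10 tested chaperones and relatives, Pdcd2, which accompanies Rps2, was called lower (log2FC -1.52) and Btf3, a subunit of the nascent polypeptide-associated complex, higher, with 236, 383 and 266 FPKM in IVM beside 792, 745 and 627 FPKM in IVO (log2FC 1.31). Among 18 tested regulators of TOP mRNAs and ribosomes, the mTOR pathway genes Tsc2 (log2FC -1.84) and Eif4ebp2 (-1.999) were called lower and none was called higher. The share called lower was 11.1%, beside 17.9% of all rows. At an unadjusted p under 0.05, 3 of these regulators were lower and 2 higher, beside 5903 and 1047 of all 18818 rows. Mtor (log2FC 0.14) and Larp1 (0.04) had values close to 0, and both were below 6 FPKM in every sample.

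Of the 74 tested mitochondrial ribosomal protein genes, 13 (17.6%) were called lower and 0 higher, and their median log2FC was -0.39. That share was close to the 17.9% of all rows, with 14.6% among the Ensembl rows alone, whereas the cytosolic genes had a share of 48.8%. At an unadjusted p under 0.05, 26 mitochondrial genes were lower and 2 higher, beside 5903 and 1047 of all 18818 rows. The same 6 samples underlie both lists.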

How the data were processed

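Pools of MII oocytes were lysed and full-length cDNA was made with the SMART-Seq v4 kit, which primes on poly(A) tails, so tail length and mRNA amount cannot be told apart. Nextera XT libraries were sequenced as paired reads of 150 bases. Per the labels and the study's methods, the authors filtered reads (SeqPrep, Sickle), mapped them with HISAT2 2.1.0 on GRCm39 and estimated gene levels with RSEM 1.3.3. The deposited values are FPKM, and the authors' DESeq2 1.24.0 results were not used, nor were their group means.

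Rows with a mean of at least 1 FPKM were tested with limma 3.58.1 (trend) in R 4.3.3 on log2(FPKM + 1), IVO minus IVM, with Benjamini-Hochberg adjustment over all 18818 rows. A call needed an adjusted p under 0.05 and an absolute log2FC of at least 1. Rows without an Ensembl identifier stayed in the fit. Paralog ratios were compared by exact permutation. Depth and fragment length were estimated from FPKM steps of genes of 500 to 4000 bases. Of the values, 74.6% to 77.4% were within 0.15 of whole fragments, so no count test was run. Floors cover counting error only. Scripts used Python 3.11.15, and the tests were tried on simulated data. Coordinates of genes are those of GENCODE vM39 on GRCm39, and start windows those of RefSeq on GRCm38.p6.

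The members and lists were chosen with earlier results of these data known. Genes named in the text are the 8 tested members at either end of the order of log2FC, paralogs and retrogenes with their parents, the 5 most abundant members, 14 members of known function, and those below 1 FPKM. For the other lists they are the most negative and most positive called genes. Rps13, Rpl17, Rpl23a, Rpl24, Rps7, Rps23rg1, Mdm2, Mtor, Larp1, Dkc1, Btf3 and the remaining names were added after their values were seen. Some genes are not reported here.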

Additional observations from a re-analysis of the deposited data

How the results depend on the processing

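No member was called higher in IVO in any of the 21 other settings tried. The 41 members called lower became 24 with median-ratio scaling, 19 with quantile normalization, 24 with libraries scaled to the same sum, and 26 with rebuilt fragment numbers and median-ratio scaling. Leaving out 1 sample gave 28 to 42. The 26 large subunit calls became 13, 11, 13 and 15 in the same order and 17 with Ensembl rows and median-ratio scaling, and ranged from 17 (without IVO replicate 2) to 24 without a sample. The 12 small subunit calls became 6 with quantile normalization. The 4 assembly calls became 2 with quantile normalization and 8 with the length trend removed. The 13 mitochondrial calls became 8 with median-ratio scaling, 5 with quantile normalization, 7 with the same sum and 8 with rebuilt fragment numbers and median-ratio scaling. The median log2FC of RP genes, -1.119 over the tested members, became -0.812, -0.623, -0.798 and -0.951 under those scalings in the same order, -0.913 with Ensembl rows and median-ratio scaling, -0.922 with ortholog rows summed and -1.401 with rebuilt fragment numbers, and ranged from -1.189 (without IVO replicate 3) to -0.936 (without IVO replicate 2). The 2 settings with rebuilt fragment numbers were chosen after seeing the data, and beyond the scaling itself the cause of these shifts was not tested.

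The sign turned for members near 0. With median-ratio scaling, quantile normalization, the same sum, Ensembl rows with median-ratio scaling, and rebuilt fragment numbers with median-ratio scaling, the log2FC was 0.139, 0.333, 0.154, 0.040 and 0.181 for Rpl13a, 0.177, 0.332, 0.192, 0.076 and 0.260 for Rpl15, and 0.178, 0.35, 0.194, 0.074 and 0.285 for Rps15a. Quantile normalization gave 0.071 for Rpl36al and 0.192 for Rpl6, which was at 0.021 with rebuilt fragment numbers and median-ratio scaling. Summing ortholog rows gave 0.324 for Rpl15, 0.305 for Rps27 and -0.218 for Rpl37rt, and rebuilt fragment numbers gave -0.161 for Rpl37rt. Leaving out 1 sample gave -0.032 to 0.060 for Rpl37rt, -0.153 to 0.495 for Rpl4 and -0.352 to 0.062 for Rps15a. For the log2 ratio of Rps12l1 to Rps12 it gave -0.194 (without IVO replicate 1) to 0.860. A pseudocount of 0.1 gave -0.053 for Rpl22l1 to Rpl22. Ortholog sums were not run for these ratios, because paralog and parent share the ortholog.

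Deviations of same-numbered samples correlated at -0.062, -0.018 and -0.107, and those of the other pairs at -0.023 to 0.081. No pairing by number was seen, but whether same-numbered pools were collected or prepared together was not tested. With the replicate block, 37 members were called lower, and 35 with the length trend removed as well. The share of all rows is not given here for these fits. The 3 pools per group, the FPKM unit and the unstranded library limit low and overlapping genes most.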
